A study of Homo sapiens with 12 samples.

Results

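The levels of 8 leukocyte chemoattractant receptor genes were compared in the acute myeloid leukemia lines MOLM-13 and THP-1, treated with Jiyuan oridonin A (JOA) or with its solvent. The 8 genes were taken by symbol from the 20030 gene rows of 1 table of mRNA-seq levels. They comprise the chemokine receptors CCR1, CCR2, CCR7, CXCR4 and CX3CR1, the formyl peptide receptor FPR1, and the lipid mediator receptors LTB4R (leukotriene B4) and PTAFR (platelet-activating factor, PAF). Both lines are established human lines grown from leukemic monocytic cells with a rearranged MLL gene, and MOLM-13 cells also carry an internal tandem duplication in FLT3. Each line therefore stands for 1 leukemia, and the values do not describe normal monocytes. There were 4 groups of 3 libraries: MOLM-13 control, MOLM-13 treated with 0.5 μM JOA, THP-1 control and THP-1 treated with 2 μM JOA, all collected at 48 h by the labels and the study's methods (1 legend of the study gives a longer time). The controls received DMSO, and JOA is an ent-kaurene diterpenoid from a medicinal Isodon plant. Cell line and dose differed together, so that a difference between the lines in their response to JOA cannot be told apart from a difference in dose. The labels do not say whether replicates were separate cultures, and the p-values measure only the spread between these libraries.

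Chemoattractant receptors sit in the plasma membrane, cross it with several helices and couple to heterotrimeric G proteins, mostly of the Gi class. Binding of a ligand releases the G protein βγ subunits, which act on phospholipase C β, phosphoinositide 3-kinase γ and exchange factors for Rac, so that the cell polarises and crawls towards the source. G protein-coupled receptor kinases, arrestins and RGS proteins then switch the signal off. In blood cells, CXCR4 holds progenitors in the marrow, CCR2 lets classical monocytes leave it, CX3CR1 marks patrolling monocytes and tissue macrophages, CCR7 guides dendritic cells and naive lymphocytes to lymph nodes, and FPR1 rises as granulocytes and monocytes mature.

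Levels are given as FPKM, the fragments of a gene divided by its exon length and by the mapped fragments of the library, which allow genes to be compared per length. Differences are given on the log2(FPKM + 0.1) scale, which understates the change of low genes. The total depth of the libraries is unknown. Relative depth was estimated from the commonest ratio between a library and control replicate 1 of its line, over genes under 0.1 FPKM in both. In MOLM-13 libraries it was 0.881 to 1.00 times that of control replicate 1, and the range for THP-1 was 0.932 to 1.07. The estimate is rough. Apart from control replicate 1 itself, the commonest narrow step of the ratio held at most 1.46% of these genes in MOLM-13 and 0.74% in THP-1 libraries. The summed FPKM of 10 myeloid markers lay between 1002 and 3528 in every library. The summed markers of T cells, B cells, erythroid cells, and epithelial cells and fibroblasts did not exceed 3.80, 1.71, 0.209 and 1.152 FPKM, respectively.

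CCR1, CCR2 and CX3CR1 lie on chromosome 3 of GRCh38, CCR1 at 46201709 to 46208396 on the minus strand, CCR2 at 46353734 to 46360928 on the plus strand and CX3CR1 at 39263494 to 39281735 on the minus strand. CCR1 and CCR2 are 145337 bp apart. CXCR4 spans 136114349 to 136118165 of chromosome 2, PTAFR 28147166 to 28193936 of chromosome 1, FPR1 51745172 to 51804110 of chromosome 19 and CCR7 40553769 to 40565472 of chromosome 17, all on the minus strand. LTB4R spans 24311450 to 24318036 of chromosome 14 on the plus strand. In GENCODE, CCR1 lies within the span of CCR3 on the opposite strand, FPR1 overlaps FPR2 and FPR3 on the opposite strand, and LTB4R overlaps LTB4R2 on the same strand. The libraries were stranded, but whether the counting used strand is not given in the sources used here, and the values of these genes are uncertain to that extent. Strand cannot separate LTB4R from LTB4R2 where they overlap, so LTB4R stays uncertain either way.

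The sequence before 1 start site is shown for PTAFR, CX3CR1 and CCR1, 3 receptors chosen from their JOA values, though none was called with JOA. PTAFR and CX3CR1 have further start windows that are not shown. The sequences are from RefSeq (GRCh38.p14), run 5′ to 3′ on the gene's own strand, and stop where GENCODE places an exon. Capitals mark matches to motifs searched on both strands.

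PTAFR, chr1:28193937-28194106, minus strand: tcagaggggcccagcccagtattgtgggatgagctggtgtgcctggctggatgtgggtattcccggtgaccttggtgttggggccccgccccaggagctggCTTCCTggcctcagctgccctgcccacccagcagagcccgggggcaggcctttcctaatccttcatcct
CX3CR1, chr3:39281736-39281985, minus strand: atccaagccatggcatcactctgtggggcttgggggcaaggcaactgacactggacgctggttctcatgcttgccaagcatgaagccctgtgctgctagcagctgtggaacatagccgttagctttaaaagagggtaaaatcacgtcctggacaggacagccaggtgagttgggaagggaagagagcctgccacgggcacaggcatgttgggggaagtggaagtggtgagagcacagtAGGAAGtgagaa
CCR1, chr3:46208397-46208563, minus strand: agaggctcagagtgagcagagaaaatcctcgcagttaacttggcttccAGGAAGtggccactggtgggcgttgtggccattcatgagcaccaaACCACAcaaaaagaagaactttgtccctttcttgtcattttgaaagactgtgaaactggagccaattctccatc

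The motifs were the core of ETS factors such as PU.1 (AGGAAG), RUNX (TGTGGT), AP-1 (TGANTCA), the antioxidant response element (TGACNNNGC) and C/EBP (TTGCNNAA). The AP-1 and antioxidant response letters can overlap. RefSeq start windows were matched for 7 of the 8 genes, 12 windows in all, and 35116 windows of all genes served as background. The ETS core was in 7 of the 12 windows, those of 5 genes, and in 33.6% of all windows. The RUNX letters were in 4 windows against 13.1% of all, and the AP-1 letters in 3 windows (PTAFR, CCR2 and FPR1) against 7.71% of all. The antioxidant response and C/EBP letters were each in 2 windows, against 13.3% and 10.5% of all. Several windows belong to 1 gene, and a match is a match of letters only.

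CXCR4, the receptor for CXCL12, had the highest level of the 8 genes in all 4 groups. In MOLM-13 control libraries 1 to 3 it was at 48.9, 43.4 and 49.2 FPKM, and in THP-1 control libraries at 46.1, 52.5 and 55.0 FPKM. CCR2, the receptor for CCL2 and CCL7, followed at 25.9, 28.2 and 29.8 FPKM in MOLM-13 controls and 27.6, 35.5 and 34.3 FPKM in THP-1 controls. The third was CCR1, which binds CCL3, CCL5 and CCL23, at 12.1, 15.1 and 14.8 FPKM in MOLM-13 controls and 10.8, 15.4 and 16.2 FPKM in THP-1 controls. For each of these 3 receptors the control libraries of the lines overlapped. By mean level in MOLM-13 controls, CXCR4 stood above 94.96% of all genes in the table, CCR2 above 91.0% and CCR1 above 82.8%.

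Below these, the order differed between the lines. In MOLM-13 controls LTB4R came next at a mean of 7.05 ± 0.553 FPKM (SD, n = 3), followed by PTAFR at 2.32 ± 0.158 and CX3CR1 at 2.30 ± 0.243 FPKM, whose libraries overlapped. In THP-1 controls CX3CR1 came next at 9.35 ± 1.24 FPKM, then LTB4R at 4.398 ± 1.19 and PTAFR at 2.18 ± 0.215 FPKM. FPR1 and CCR7 were the lowest in both lines. Their means were 0.106 and 0.109 FPKM in MOLM-13 controls, where their libraries overlapped, and 0.290 and 0.0449 FPKM in THP-1 controls, where they did not. No other neighbours in the order overlapped in either control group. With JOA, the order in each line was the same for the 6 highest genes, and PTAFR stood clear of CX3CR1 in MOLM-13 cells.

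**Figure D1:**
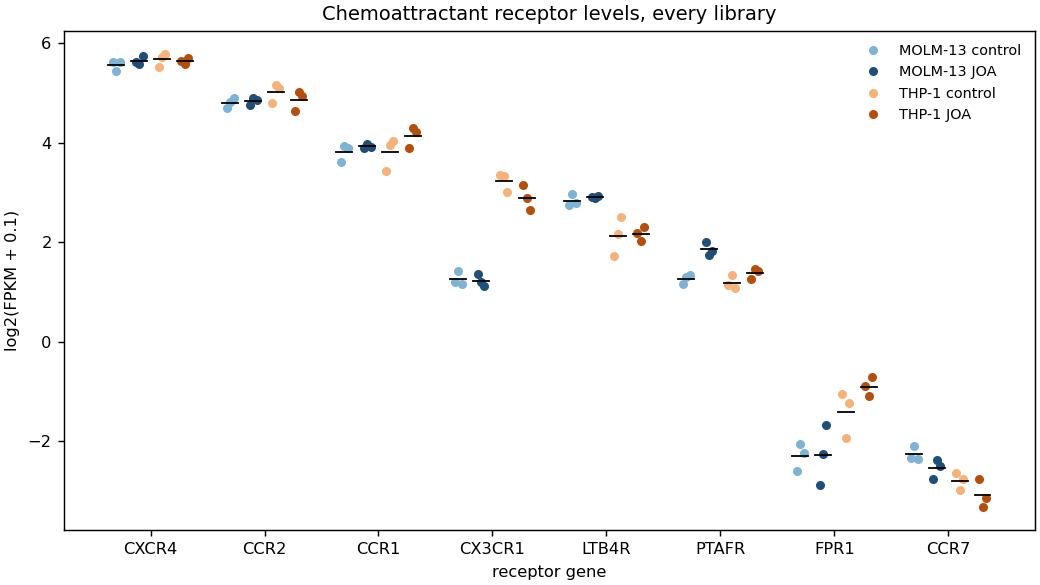
Level of each receptor in every library on the log2(FPKM + 0.1) scale, grouped by gene, with a point for each library and a line for the mean of each group of 3. CXCR4, CCR2 and CCR1 lie at the top in all 4 groups, CX3CR1 is higher in THP-1 than in MOLM-13 cells, and FPR1 and CCR7 lie at the bottom.

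THP-1 and MOLM-13 control cells differed in 3 of the 7 receptors that passed a filter of a mean of at least 0.1 FPKM over the libraries compared. CX3CR1 and FPR1 were higher and LTB4R was lower in THP-1 cells. A gene was called when its limma p, adjusted by Benjamini and Hochberg over all genes tested, was under 0.05 and its absolute log2 difference was at least 0.58. By that rule 44.0% of 12635 genes were called between the lines, 25.0% higher and 19.0% lower, so that 3 of 7 is near the share over all genes. The number of receptors called was 2 with a pseudocount of 1 or a filter of 1 FPKM, and 4 in TPM.

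CX3CR1, the receptor for fractalkine, was at 2.196, 2.58 and 2.12 FPKM in MOLM-13 controls and at 10.1, 9.98 and 7.91 FPKM in THP-1 controls. The groups were far apart, with a log2 difference of 1.97 (SE 0.12, limma adjusted p = 2.41e-06), 3.93-fold on that scale. LTB4R, the high-affinity receptor for leukotriene B4, was at 6.64, 7.68 and 6.85 FPKM in MOLM-13 controls and at 3.201, 4.41 and 5.58 FPKM in THP-1 controls. It was lower in every THP-1 library, by a log2 difference of -0.70 (SE 0.18, limma adjusted p = 0.00768). Without THP-1 control replicate 1, the library with the lowest LTB4R, the difference was -0.50 and no longer met the fold threshold. How fragments from the overlap of LTB4R with LTB4R2 were counted is not given. FPR1, which senses formylated bacterial peptides, was at 0.0642, 0.140 and 0.112 FPKM in MOLM-13 controls and at 0.383, 0.161 and 0.327 FPKM in THP-1 controls. The groups did not overlap, and the log2 difference was 0.89 (SE 0.27, limma adjusted p = 0.0170). This call was lost when MOLM-13 control replicate 1, THP-1 control replicate 1 or THP-1 control replicate 3 was left out, with log2 differences of 0.74, 0.72 and 0.80 and limma adjusted p of 0.0549, 0.0558 and 0.0543. With a pseudocount of 1 the FPR1 difference shrank to 0.22, under the fold threshold.

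CCR7 was below the filter in this comparison on the FPKM scale. It was at 0.0968, 0.135 and 0.0952 FPKM in MOLM-13 controls and at 0.0601, 0.0276 and 0.0470 FPKM in THP-1 controls. The THP-1 values were all lower, and the exact two-sided permutation test gave p = 0.1, the smallest it can give with 3 libraries against 3. In TPM it passed the filter and was called, with a log2 difference of -0.84 (limma adjusted p = 0.0281). TPM raised every value, as the libraries summed to 291127 to 325023 FPKM. The filter and pseudocount stayed at 0.1 and were thus less strict in TPM. Groups that do not overlap were found for 74.8% of the genes tested between the lines, 40.7% higher and 34.1% lower in THP-1 cells. The other receptors were not called. The log2 differences were 0.21 for CCR2 (95% interval -0.03 to 0.44), 0.12 for CXCR4 (-0.08 to 0.31), -0.01 for CCR1 (-0.37 to 0.36) and -0.09 for PTAFR (-0.34 to 0.16). The median log2 difference over all genes tested was 0.06, and rescaling each library to TPM moved it to 0.17.

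**Figure D2:**
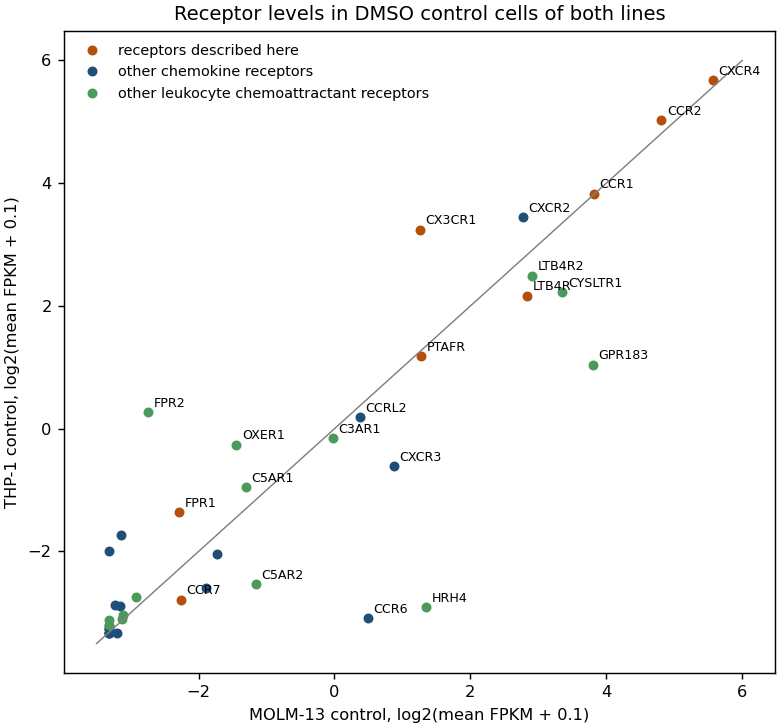
Mean level of each receptor gene in the 3 control libraries of MOLM-13 cells (horizontal) and of THP-1 cells (vertical), both as log2(mean FPKM + 0.1), with a grey line where the lines are equal. CXCR4, CCR2, CCR1 and PTAFR lie close to the line of equal levels, CX3CR1 lies above it at 9.35 against 2.30 FPKM, and GPR183, CCR6 and HRH4 lie below it.

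Of 17 other chemokine receptors, 7 passed the filter between the lines, and 2 were higher and 3 lower in THP-1 controls. These counts between the lines, and those of the lists that follow, stand beside the 25.0% of all genes called higher and 19.0% called lower. CXCR2, the neutrophil receptor for CXCL8, was the highest of them in both lines, at 6.72 ± 0.239 FPKM in MOLM-13 controls and 10.8 ± 1.23 FPKM in THP-1 controls (SD, n = 3), a log2 difference of 0.67 (limma adjusted p = 0.000227). The scavenging receptor ACKR2 was the other one higher in THP-1 cells, at 0.200 FPKM in THP-1 against 0.0130 FPKM in MOLM-13 controls. CXCR3, a receptor of activated T cells, was lower at 0.555 against 1.74 FPKM, and so were CCR3, at 0.0658 against 0.171 FPKM, and CCR6. ACKR2, CCR3 and CCR6 were under 0.1 FPKM in 1 line and passed the filter only through the line where they were higher. The same held for some genes called between the lines in the lists that follow. CCR6, the receptor for CCL20, was at 1.30 ± 0.185 FPKM in MOLM-13 controls and 0.0175 ± 0.0204 FPKM in THP-1 controls. The median log2 difference of the 7 was -0.24.

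Of 14 other leukocyte chemoattractant receptors, 9 passed, and 2 were higher and 4 lower in THP-1 controls. FPR2, the sister receptor of FPR1, was at 0.0493 FPKM in MOLM-13 controls and 1.11 FPKM in THP-1 controls, a log2 difference of 3.02 (SE 0.16, limma adjusted p = 1.18e-06). The eicosanoid receptor OXER1 was also higher. GPR183, which binds oxysterols, was lower at 1.96 against 13.8 FPKM, the histamine receptor HRH4 at 0.0332 against 2.46 FPKM, and the cysteinyl leukotriene receptor CYSLTR1 at 4.57 against 10.1 FPKM. The complement receptor C5AR2 was lower as well. LTB4R2, the low-affinity leukotriene B4 receptor beside LTB4R, was at 5.53 ± 1.49 against 7.39 ± 0.372 FPKM, a log2 difference of -0.44 that was under the fold threshold (limma adjusted p = 0.0386).

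JOA was compared with control in each line to ask which receptors respond to a compound studied for its effect on differentiation. In MOLM-13 cells, the largest difference among the 8 receptors was that of PTAFR. Its level was 2.14, 2.38 and 2.43 FPKM in controls and 3.91, 3.26 and 3.42 FPKM with JOA. The groups did not overlap, and PTAFR was higher with JOA in all 3 same-numbered pairs, as were 18.5% of genes. The log2 difference was 0.59 (SE 0.10, 95% interval 0.36 to 0.82), 1.501-fold. The unadjusted p was 0.000332, but the limma adjusted p was 0.777 (0.244 with replicate as a block), so PTAFR was not called. In this comparison 0 of 11693 genes (0%) were called and 481 (4.11%) reached an unadjusted p under 0.05. The groups did not overlap for 9.65% of genes, 5.10% higher and 4.55% lower. The block left the calls at 0, and 1295 genes (11.1%) then had an unadjusted p under 0.05. Leaving out each library in turn, the PTAFR difference lay between 0.51 and 0.64.

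The 6 other receptors that passed the filter overlapped between MOLM-13 control and JOA libraries. CXCR4 was at 49.1, 47.6 and 53.3 FPKM with JOA, CCR2 at 27.1, 29.6 and 28.9 FPKM and CCR1 at 14.7, 15.5 and 15.04 FPKM. Their log2 differences were 0.09 (95% interval -0.08 to 0.25), 0.03 (-0.13 to 0.19) and 0.11 (-0.10 to 0.32). All 3 intervals lay within the fold threshold of 0.58. CXCR4 and CCR1 were higher with JOA in all 3 pairs, as were 18.5% of genes. LTB4R, at 7.44, 7.26 and 7.48 FPKM with JOA, differed by 0.07 (-0.10 to 0.24), and CX3CR1, at 2.46, 2.21 and 2.07 FPKM, by -0.03 (-0.29 to 0.22). FPR1, at 0.0365, 0.109 and 0.215 FPKM, differed by 0.03, and its interval of -0.77 to 0.83 reached beyond the fold threshold on both sides. CCR7, below the filter, was at 0.0473, 0.0935 and 0.0772 FPKM with JOA, under all 3 controls (exact permutation p = 0.1).

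**Figure D3:**
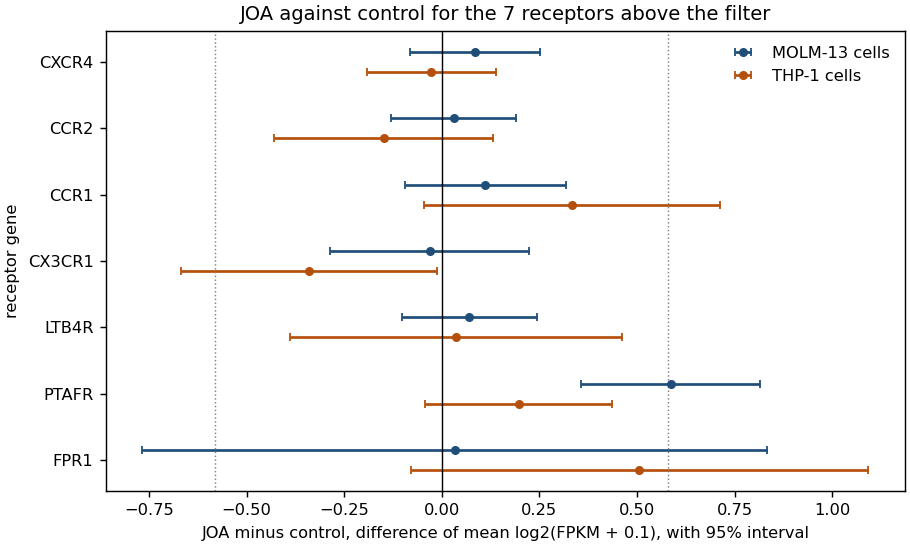
Difference of mean log2(FPKM + 0.1) between JOA and control libraries for the 7 receptors above the filter, with the 95% interval from limma without the block, in MOLM-13 and in THP-1 cells, and dotted lines at the fold threshold of 0.58. PTAFR in MOLM-13 cells has the largest difference, 0.59, and the interval of CX3CR1 in THP-1 cells lies below 0.

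In THP-1 cells, 0 of the 7 receptors that passed the filter were called, beside 17 of 12712 genes (0.134%), 7 higher and 10 lower. Control and JOA libraries of the same replicate number were taken as pairs because their values correlated, as the labels name no pairing. With the number as a block 161 genes (1.27%) were called, again with 0 receptors among them. With the block, CCR1 was higher and CX3CR1 lower at an adjusted p under 0.05, both under the fold threshold. The adjusted p alone was passed by 8.06% of genes with the block, 5.37% higher and 2.69% lower, and by 0.299% without it.

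CX3CR1 was at 10.1, 9.98 and 7.91 FPKM in THP-1 controls and at 8.74, 7.29 and 6.13 FPKM with JOA. The groups overlapped, but the JOA library was lower in all 3 pairs, as it was for 19.4% of genes. The log2 difference was -0.34 (SE 0.14, 95% interval -0.67 to -0.01, limma adjusted p = 0.278), and with the block the SE was 0.06 and the limma adjusted p 0.0240. With a library left out the difference ran from -0.47 to -0.22, nearest to 0 without THP-1 JOA replicate 3. CCR1 was at 10.8, 15.4 and 16.2 FPKM in controls and at 14.9, 19.7 and 18.4 FPKM with JOA. It was higher in all 3 pairs, as were 29.3% of genes. The log2 difference was 0.33 (SE 0.16, limma adjusted p = 0.355), and with the block the SE was 0.06 and the limma adjusted p 0.0242. Without THP-1 control replicate 1, which had the lowest CCR1, the difference was 0.15, and without the JOA library of the same number it was 0.45. The fits with a library left out had no block and broke a pair, so these ranges also hold the differences between replicates.

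**Figure D4:**
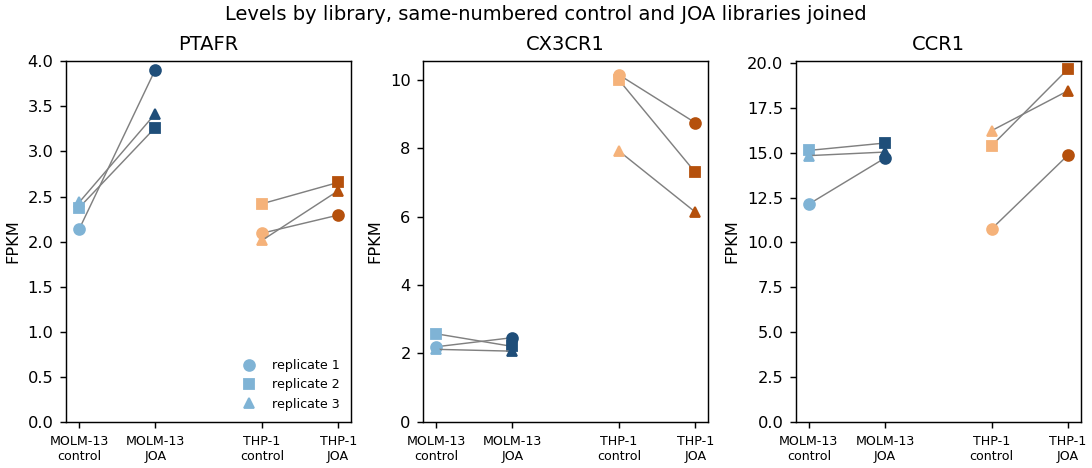
FPKM of PTAFR, CX3CR1 and CCR1 in every library, with the control and JOA libraries of the same replicate number joined by a line, in MOLM-13 and THP-1 cells. PTAFR and CCR1 are higher with JOA in all 3 pairs of both lines, PTAFR at 3.26 FPKM or more with JOA in MOLM-13 cells. CX3CR1 is lower with JOA in every THP-1 pair and in 2 of the 3 MOLM-13 pairs.

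For 3 further receptors above the filter the THP-1 pairs all pointed the same way, but the test was not passed. Over all genes tested, 29.3% were higher and 19.4% lower in all 3 THP-1 pairs. CCR2 was at 24.9, 32.2 and 30.6 FPKM with JOA, lower in each pair, with a log2 difference of -0.15 (limma adjusted p = 0.583, with the block 0.0605). PTAFR was at 2.09, 2.42 and 2.01 FPKM in controls and 2.29, 2.66 and 2.56 FPKM with JOA, a log2 difference of 0.20 (limma adjusted p = 0.385, with the block 0.196). FPR1 was at 0.438, 0.368 and 0.512 FPKM with JOA, a log2 difference of 0.51 with a 95% interval of -0.08 to 1.09 (limma adjusted p = 0.363, with the block 0.148). CCR7 was at 0.0471, 0 and 0.0139 FPKM with JOA, also lower in each pair (exact permutation p = 0.3). CXCR4, at 50.1, 48.1 and 52.2 FPKM, and LTB4R, at 4.45, 3.95 and 4.85 FPKM, had log2 differences of -0.03 (95% interval -0.19 to 0.14) and 0.04 (-0.39 to 0.46).

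Some markers of myeloid cells also differed between control and JOA libraries. Of 10 in MOLM-13 cells, 0 were called with or without the block, but 3 (CD33, ITGAM and CD68) had an unadjusted p under 0.05 and were higher with JOA without overlap, by 0.14, 0.39 and 0.38 on the log2 scale. Over all genes tested, 4.11% had such an unadjusted p and 5.10% were higher without overlap. The summed level of the 10 ran from 2062 to 3303 FPKM in MOLM-13 controls and from 2607 to 3528 FPKM with JOA. In THP-1 cells 0 of the 10 were called without the block. With it, CD33, ITGAM (CD11b), CD68 and FCGR1A were higher and MPO lower at an adjusted p under 0.05, and 2 of the 5 also met the fold threshold. Over all genes tested with the block, 8.06% passed that adjusted p and 1.27% also met the fold threshold. The summed level of the 10 markers, mostly that of lysozyme, ran from 1002 to 1612 FPKM in controls and from 1096 to 1373 FPKM with JOA. The summed B cell markers ran from 1.17 to 1.71 FPKM in THP-1 controls and from 0.880 to 1.11 FPKM with JOA, without overlap. Their part in the receptor values was not tested. In bulk samples, fewer cells of a kind and less RNA per cell cannot be told apart.

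The response to JOA was compared between the lines by the interaction of line and treatment. Of the 7 receptors tested, 0 were called, and 0 of 12626 genes (0%) were called in all, while 914 (7.24%) had an unadjusted p under 0.05. With the replicate block 6 genes (0.0475%) were called, and 0 receptors. Without the block the receptor with the smallest p was PTAFR, whose difference was 0.59 in MOLM-13 and 0.20 in THP-1 cells, an interaction of -0.39 (SE 0.14, limma adjusted p = 0.593). With the block it was CCR2, with an interaction of -0.18 (limma adjusted p = 0.183). The interaction was -0.31 for CX3CR1 (95% interval -0.73 to 0.11) and 0.22 for CCR1 (-0.23 to 0.67). With the block the intervals were -0.58 to -0.045 for CX3CR1, 0.0049 to 0.44 for CCR1 and -0.30 to -0.058 for CCR2. The limma adjusted p values with the block were 0.271, 0.326 and 0.183, respectively. The block interval of PTAFR, -0.70 to -0.079, also lay below 0, and those of CXCR4, FPR1 and LTB4R held 0.

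With JOA, 0 of 6 other chemokine receptors tested were called in either line with or without the block, and 0 of 8 other chemoattractant receptors in MOLM-13 and 0 of 7 in THP-1 cells. CXCR2 was at 7.48 ± 0.300 FPKM with JOA in MOLM-13 cells, above all 3 controls, a log2 difference of 0.15 (limma adjusted p = 1.00, with the block 0.394). In MOLM-13 cells CXCR3 was at 1.37 ± 0.389 FPKM with JOA against 1.74 ± 0.331 FPKM, and CYSLTR1 at 8.84 ± 0.590 against 10.1 ± 1.89 FPKM, both with overlap. CXCR3 in THP-1 cells, under the 1 FPKM used for naming, was at 0.185 ± 0.180 FPKM with JOA against 0.555 ± 0.275 FPKM. These THP-1 groups overlapped, with a log2 difference of -1.27 (limma adjusted p = 0.246, with the block 0.0559). FPR2 in THP-1 cells was at 1.42 ± 0.282 FPKM with JOA against 1.11 ± 0.110 FPKM, a log2 difference of 0.32 (limma adjusted p = 0.351, with the block 0.124). GPR183 and CYSLTR1 were lower with JOA than in every THP-1 control, by -0.25 and -0.24 on the log2 scale (limma adjusted p = 0.284 and 0.212), in a comparison where 23.4% of genes did not overlap, 14.6% higher and 8.81% lower. The chemerin-binding CCRL2 differed by -0.12 in MOLM-13 and 0.22 in THP-1 cells, and HRH4 in MOLM-13 cells by 0.30.

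The ligands of these receptors, the enzymes of the lipid ligands and the signalling proteins were read from lists in the same fits. Calls with the block in THP-1 cells, here and in the next lists, stand beside 1.27% of all genes. Genes that passed the adjusted p alone with the block stand beside 8.06%. Of 17 listed ligands in the table, 7 were listed at 0 in every library, among them CCL19 and CCL21, the ligands of CCR7. CXCL12, the chemokine ligand of CXCR4, did not exceed 0.0857 FPKM in any library, and CX3CL1 (fractalkine) did not exceed 0.0123 FPKM. MIF, a ligand of CXCR4, had the highest level, 1000.2 ± 88.5 FPKM in MOLM-13 and 985 ± 43.0 FPKM in THP-1 controls. CCL5, a ligand of CCR1, was at 41.3 and 35.5 FPKM. Of 7 ligands tested between the lines, ANXA1 was higher in THP-1 controls and CCL3 lower, by log2 differences of 0.96 and -1.81. In MOLM-13 cells 0 of 7 ligands tested were called with JOA, and ANXA1 and CCL5 differed by 0.28 and 0.18. MIF differed by -0.22 in THP-1 cells (limma adjusted p = 0.127, with the block 0.0365). In THP-1 cells 0 of 6 were called, and with the block 2 were called, CCL3 and ANXA1, both higher. CCL23, another ligand of CCR1, went from 7.78 ± 2.02 to 5.95 ± 1.70 FPKM and was lower in each pair, a log2 difference of -0.39 under the fold threshold (limma adjusted p = 0.442, with the block 0.0254). ANXA1, whose product binds formyl peptide receptors, was at 15.9, 11.05 and 15.1 FPKM in THP-1 controls and 26.0, 18.1 and 21.6 FPKM with JOA, a log2 difference of 0.64 (limma adjusted p = 0.117, with the block 0.00602). CCL3, a ligand of CCR1, went from 0.934 ± 0.192 to 1.49 ± 0.358 FPKM (limma adjusted p = 0.193, with the block 0.0451).

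Of 11 enzymes of leukotriene B4 and PAF tested in THP-1 cells, 0 were called with JOA, and with the block ALOX5 was. ALOX5, the 5-lipoxygenase that opens leukotriene synthesis, was at 1.11, 0.569 and 1.17 FPKM in controls and 2.00, 1.14 and 1.47 FPKM with JOA, a log2 difference of 0.66 (limma adjusted p = 0.284, with the block 0.0324). Its partner ALOX5AP went from 30.4 ± 8.39 to 44.6 ± 11.2 FPKM, a log2 difference of 0.56 (limma adjusted p = 0.257, with the block 0.00602). The PAF-forming LPCAT2 and the PAF-degrading PAFAH2 also passed the adjusted p with the block, with differences of 0.32 and 0.47. In MOLM-13 cells 0 of 10 were called with or without the block, and PTGR1, which inactivates leukotriene B4, and LPCAT1 differed by 0.16 and 0.14. The median of the 11 in THP-1 cells was 0.17, beside 0.02 over all genes tested. Between the lines, 4 of 11 enzymes were higher in THP-1 controls (ALOX5, LPCAT1, PLA2G7 and PTGR1) and 2 lower (ALOX5AP and LTA4H). ALOX5AP was at 82.0 ± 6.63 FPKM in MOLM-13 and 30.4 ± 8.39 FPKM in THP-1 controls.

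Of 22 genes of G protein signalling to migration tested in each line, 0 were called with JOA with or without the block. GNB2, a G protein β subunit, was at 63.7 ± 2.57 FPKM in THP-1 controls and 72.2 ± 1.91 FPKM with JOA, a log2 difference of 0.18 (limma adjusted p = 0.128, with the block 0.0318). In MOLM-13 cells PLCB2, a phospholipase C β, and GNG2 each differed by 0.31, and in THP-1 cells the Rac activator subunit ELMO1 differed by 0.19. RAC2, the Rac GTPase of blood cells, had the highest level in MOLM-13 controls, 152 ± 7.32 FPKM, and the γ subunit GNG5 in THP-1 controls, 223 ± 10.1 FPKM. Between the lines, 6 of 23 were higher in THP-1 controls, with GNAI1, GNAI2 and GNAI3 among them, and 5 were lower. GNAI2, the main Gi α subunit of leukocytes, was at 106 ± 3.92 FPKM in THP-1 and 59.4 ± 3.30 FPKM in MOLM-13 controls, a log2 difference of 0.83 (limma adjusted p = 7.45e-06). The γ subunit GNG2 was at 2.96 FPKM in MOLM-13 and 0.00956 FPKM in THP-1 controls.

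Of the desensitisation genes, 0 of 13 in MOLM-13 cells and 0 of 12 in THP-1 cells were called with JOA with or without the block. RGS18, a brake on Gi and Gq signals in blood cells, was higher with JOA without overlap in both lines, as were 5.10% of genes in MOLM-13 and 14.6% in THP-1 cells. It went from 4.85 ± 0.393 to 6.26 ± 0.250 FPKM in MOLM-13 cells (log2 difference 0.36, limma adjusted p = 1.00, with the block 0.260) and from 3.41 ± 0.399 to 4.72 ± 0.0332 FPKM in THP-1 cells (0.46, limma adjusted p = 0.0805, with the block 0.0209). GRK6 was also higher with the block in THP-1 cells, by 0.27 (limma adjusted p = 0.0219). RGS1 differed by 0.28 in MOLM-13 cells with an SE of 1.21, and the arrestin ARRB1 by -0.27 in THP-1 cells (limma adjusted p = 0.175). GRK2, the kinase with the highest level, was at 91.7 ± 6.59 FPKM in MOLM-13 and 103 ± 5.76 FPKM in THP-1 controls. Between the lines, GRK3, ARRB2 and RGS19 were higher and GRK5, ARRB1 and RGS1 lower in THP-1 controls.

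**Figure D5:**
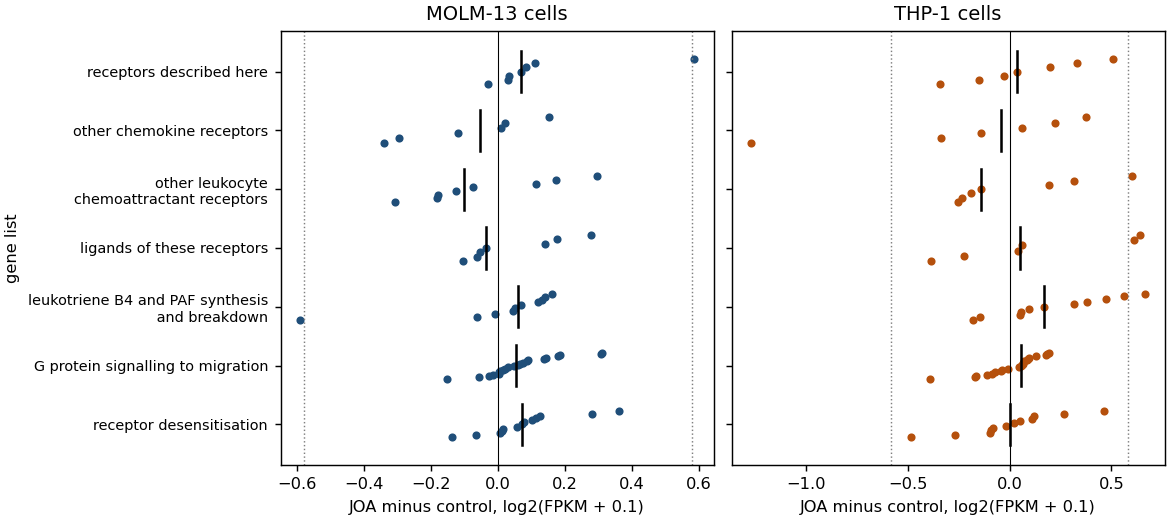
Difference of mean log2(FPKM + 0.1) between JOA and control libraries for each gene that passed the filter in the 8 receptors and the 6 lists, with a point for each gene, a bar at the median of each list and dotted lines at the fold threshold of 0.58, in MOLM-13 and THP-1 cells. Medians lie close to 0 in both lines, the highest being 0.17 for the leukotriene B4 and PAF enzymes in THP-1 cells.

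Likeness of pattern was measured by Pearson's r over the 12 libraries after the mean of each line was subtracted, among 9239 genes with at least 1 FPKM in both lines. The nearest gene was LYN for CCR1 (r = 0.96), B2M for CCR2 (0.95), GOLGA1 for CXCR4 (0.92), POLR3E for CX3CR1 (0.94), FAM83H for LTB4R (0.93) and YIPF2 for PTAFR (0.93). Between the 6 receptors themselves r ran from -0.65, for CCR1 with CX3CR1, to 0.60, for CCR1 with LTB4R. Each nearest gene has the highest r of the 9239 genes, and what r other genes reach by the same search was not tested. These values describe 12 libraries that share lines, treatments and replicate numbers, and they do not show shared regulation.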

How the data were processed

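Levels of mRNA were measured in 12 libraries, 4 groups of 3. The authors extracted RNA with Trizol, made stranded mRNA libraries, sequenced paired ends and deposited FPKM per gene, scaled by them to exon length and to each library's mapped fragments. The submitters' processing notes list Trimmomatic, HISAT2, Cufflinks, HTSeq and build hg38. Versions and annotation are not given in the sources used here. Counts could not be recovered from the steps of low values, so DESeq, which the authors used, was not run and total depth is unknown, with no counting interval given.

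Genes with a mean of at least 0.1 FPKM over the libraries compared were fitted on log2(FPKM + 0.1) by limma 3.58.1 in R 4.3.3 with a mean-variance trend, and p-values were adjusted over all genes tested by Benjamini and Hochberg. The study's thresholds were used, 0.05 for the adjusted p and 0.58 for the absolute log2 difference, and the interaction was called on the adjusted p alone. Receptors below the filter were compared by the exact two-sided permutation test. The procedure was tested on simulated data with known changes and independent noise in each library. Those data held no replicate pairs, so the test does not show how often the block gives false calls. The 8 receptors and the lists were chosen with earlier results of these data known. All 8 are named. From the lists, the text names the genes called in a JOA comparison or in the interaction (there were 0 without the block), the gene with the highest control mean in each line and the 2 with the largest JOA difference at 1 FPKM or more. Others named (CCR3, CCR6, ACKR2, OXER1, C5AR2, GNAI1, GNAI3, GRK3, GRK5, GRK6, ARRB2, RGS19, PLA2G7, LTA4H, LPCAT2, PAFAH2, CXCL12, CX3CL1, CCL19, CCL21, CCL23, GNA15, GNAI2 and markers) were named after their values were seen. Of the other chemokine receptors, 1 gene was left out of the list and its counts and is not reported here.

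Deviations from the group means of control and JOA libraries of the same number correlated at 0.407 to 0.580 in MOLM-13 and 0.297 to 0.541 in THP-1 cells, and at -0.389 to 0.0676 and -0.439 to -0.0560 between different numbers, so the numbers pair them. Replicates of a group correlated at 0.989 to 0.995. Across lines, same-numbered controls correlated at 0.0757 to 0.180 and controls of different numbers at -0.121 to 0.0517. The same-numbered values were weaker than within a line, though all were above those between different numbers. Controls were not taken as paired across lines, and whether a number marks a step of handling shared by both lines was not tested. Positions are from GENCODE v29 (GRCh38) and start sequences from RefSeq. Alternatives covered the pseudocount (1 and 0.01), the filter (1 FPKM or none), rescaling to TPM or by median ratios, eBayes without a trend, the replicate block, 1 fit on all 12 libraries and leaving out each library.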

Additional observations from a re-analysis of the deposited data

Results flagged for a closer look

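Among the receptors and the 6 lists, 4 list genes were higher with JOA in all 3 same-numbered pairs of 1 line and lower in all 3 pairs of the other, and 0 of the 8 receptors were. The 4 are 5.19% of the 77 receptor and list genes tested for the interaction, and such opposite directions were found for 4.92% of all 12626 genes tested. ALOX5, the 5-lipoxygenase, was lower with JOA in each MOLM-13 pair, at 0.372, 0.302 and 0.186 FPKM in controls and 0.216, 0.0905 and 0.164 FPKM with JOA, and higher in each THP-1 pair, and its response differed between the lines by 1.26 on the log2 scale (limma interaction, adjusted p = 0.534, with the replicate block 0.0998). The acyltransferase LPCAT1 was higher in each MOLM-13 pair and lower in each THP-1 pair, a difference in response of -0.28 (limma adjusted p = 0.679). The same directions held for the G protein α subunits GNAI2, by -0.093 (limma adjusted p = 0.887), and GNA15, by -0.30 (limma adjusted p = 0.8505). None of these 4 differences between the lines passed the test, with or without the block, and the dose differed with the line.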

How the results depend on the processing

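The count of receptors called stayed at 0 in both JOA comparisons and in the interaction under every alternative, single libraries left out included. Between the control groups it was 3, and 1 to 3 when a library was left out, lowest without THP-1 control replicate 1. It was 2 with a pseudocount of 1, 2 with a filter of 1 FPKM and 4 in TPM. The counts of all genes called were less stable. In MOLM-13 cells the count of 0 became 1 without the filter and 1 in the fit on all 12 libraries, and was 0 to 0 with a library left out. In THP-1 cells the count of 17 became 8 with a pseudocount of 1, 0 without the filter, 1 without the trend, 161 with the replicate block and 56 in the fit on all 12 libraries, and 0 to 1 with any library left out. The interaction count of 0 became 1 with a pseudocount of 1, 3 without the filter, 1 in TPM and 6 with the replicate block, and was 0 to 0 with a library left out. The count of 5559 genes between the controls was 5448 to 5718 with a library left out, 3951 with a pseudocount of 1, 3866 with a filter of 1 FPKM and 6345 in TPM. The cause of these shifts was not tested.

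Small differences changed sign. For JOA and the interaction, the fits with a library left out had no replicate block and left a pair incomplete. In MOLM-13 cells FPR1 with JOA was at -0.044 with a pseudocount of 0.01 and -0.0080 in TPM. With a library left out it ran from -0.12 to 0.34, CCR2 from -0.022 to 0.078 and CX3CR1 from -0.096 to 0.051. In THP-1 cells LTB4R ran from -0.17 to 0.22 and CXCR4 from -0.10 to 0.027. The interaction of LTB4R was 0.0026 in TPM and -0.24 to 0.15 with a library left out. CCR1 between the controls was 0.076 in TPM and -0.12 to 0.18 with a library left out. Other small differences kept their sign but moved by over 1.5 times. In THP-1 cells FPR1 was 0.24 without THP-1 control replicate 2 and 0.16 with a pseudocount of 1, and CCR2 was -0.038 without THP-1 JOA replicate 1. The interaction of CCR1 was 0.038 without THP-1 control replicate 1, that of CCR2 -0.070 without THP-1 JOA replicate 1 and that of CX3CR1 -0.18 without THP-1 JOA replicate 3. The replicate block changed no call of a receptor. The total depth of the libraries is unknown.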
